A study of Drosophila melanogaster with 6 samples.

Results

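The genes described here are the protein-coding genes whose RNA was far more abundant in the central nervous system (CNS) of *Alk-YS* third-instar larvae than in that of w1118 larvae. They are 30 of the 13416 genes in the comparison table, and 30 of the 8151 protein-coding genes whose *Alk-YS* libraries averaged 50 or more normalized counts. A normalized count is the number of reads on a gene after division by a size factor that evens out sequencing depth. The genes were chosen by these normalized counts: a gene was taken where its lowest *Alk-YS* library, plus 5, reached at least 2 times its highest w1118 library, plus 5. *Lasp*, *plum* and *vas* were left out by name, as were genes whose symbols begin with Cyp, Gst, Obp, ppk, Cpr, Lcp, Muc, obst- or PGRP-. This removed *Lasp*, *GstE1* and *plum*, which met the numbers. Turned round, the same rule gave 46 genes lower in *Alk-YS*. Because the *Alk-YS* and w1118 values themselves chose the 30 genes, their difference between the groups is given below as a description, with no test.

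RNA sequencing covered 3 *Alk-YS* libraries and 3 w1118 libraries, each from the dissected CNS of 40 to 45 pooled larvae of *Drosophila melanogaster*. *Alk-YS* larvae are homozygous for an edited *Alk* allele that codes for serine in place of a kinase-domain tyrosine, which the study treats as a gain-of-function allele. The w1118 larvae were the control, and w1118 names a mutation of the eye pigment gene *white*. The study's stock list gives its wild-type control as a w1118 line that also carries a vasa-Cas9 transgene, and the labels name only w1118, so the alleles that the 2 groups share beside *Alk* are not fully known. A change of a single codon cannot be checked from gene-level values. Read totals ran between 18869988 and 22333967 in *Alk-YS* libraries and between 18770029 and 21712148 in w1118 libraries. *white* had at most 2.77 normalized counts in an *Alk-YS* library, against at most 7.0 in a w1118 library. The labels call the pools of a genotype biological replicates and do not say whether they came from separate cultures. Each p-value below sets the difference between the groups against the spread between these pools.

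Alk, anaplastic lymphoma kinase, is a receptor tyrosine kinase that in flies is activated by the secreted ligand Jelly belly (Jeb) and signals through the Ras and MAP kinase cascade. In the larval CNS it is found in neurons, and it is known for sparing brain growth when nutrients are scarce and for roles in neuropeptide-producing cells. The 30 genes are not a pathway. They include transcription factors, a G protein-coupled receptor, an ion channel, transporters, lysosomal and lipid enzymes, a mitochondrial ribosomal protein, a cuticle protein and genes known from the testis and male tract. Of these genes, 15 have a symbol other than a CG number in the deposited table and 15 carry only a CG number, of which 4 have since been named: *CG17669* is now *Dnaaf3*, *CG32581* is *sordd2*, *CG17018* is *Marf1* and *CG32165* is *Apl*. No sequences are shown.

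The members spanned a wide range of levels. As normalized counts, which also grow with gene length, means in *Alk-YS* ran from 51.5 normalized counts for *antr* to 4026 for *CG5068* (median 452), and means in w1118 ran from 0 to 1242 (median 66.7). The *Alk-YS* mean was under 100 for 6 members, 100 to under 1000 for 18 and 1000 or more for 6. On a per-length scale the median level was 10.8 FPKM (fragments per kilobase of gene, scaled to library size) in *Alk-YS* and 1.58 FPKM in w1118. The log2 fold change, *Alk-YS* over w1118 and taken on log2(normalized count + 1), ran between 1.32 and 9.80 with a median of 2.23, beside a median of 0.01 over all 9668 genes tested. That test was limma across all genes with Benjamini-Hochberg adjustment, and all 30 members passed it at an adjusted p of 0.05, as did 1.26% of all tested genes in the same direction. In every member all *Alk-YS* libraries lay above all w1118 libraries, as they did in 9.41% of all tested genes. Nothing is read from these counts, since the rule used the same contrast. Only 6 members had a ratio in the rule of 5 or more, 8 lay between 3 and 5, and 16 lay under 3. In bulk tissue, more cells that use a gene and more RNA per cell cannot be told apart, and this holds for every member.

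**Figure D1:**
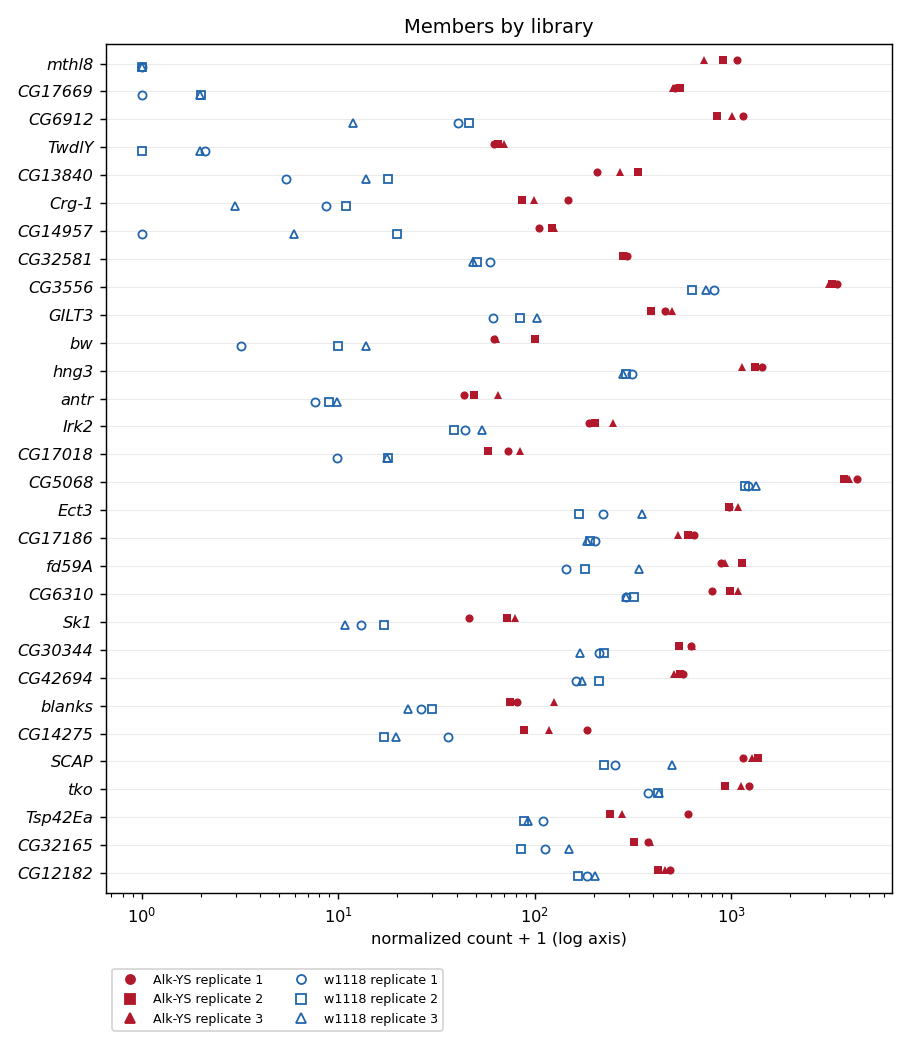
Normalized count plus 1 (log axis) of each of the 30 members in every library, with filled red symbols for the 3 Alk-YS libraries and open blue symbols for the 3 w1118 libraries. Members are ordered by the ratio used in the rule, and no w1118 symbol reaches an Alk-YS symbol of the same gene, which the rule itself requires.

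In 3 members the w1118 libraries held almost no reads. *mthl8* (FBgn0052475, chromosome 3L, 22428 to 26308, plus strand, BDGP6 coordinates as in the table) encodes a methuselah-like G protein-coupled receptor, of the family of which Methuselah is known for its effect on life span. It had 1063, 911 and 726 normalized counts in *Alk-YS* libraries, against 0, 0 and 0 in w1118 libraries. With 2787 reads in *Alk-YS* and none in w1118, its level was at least 292-fold higher in *Alk-YS*, taking 3 reads per w1118 library as the limit that a count of 0 allows. *CG17669*, or *Dnaaf3* (FBgn0034352, 2R, 18452737 to 18454462, minus strand), is the fly counterpart of a factor that assembles the dynein arms of motile cilia and sperm tails. Its level was 514.5, 549.8 and 503.2 normalized counts in *Alk-YS* and 0, 1.00 and 0.98 in w1118. The ratio was 762, with a 95% interval of 211 to 6300 from 1614 and 2 reads. *TwdlY* (FBgn0052570, X, 16734947 to 16735980, plus strand), a Tweedle cuticle protein gene, had 60.9, 64.1 and 68.8 normalized counts in *Alk-YS*, against 1.10, 0 and 0.98 in w1118. Its ratio was 94.5 (95% interval 25.8 to 785, from 200 and 2 reads). The intervals are exact (Clopper-Pearson) and cover counting error only. Within *Alk-YS* these genes were steady from library to library, with a coefficient of variation (CV, SD over mean) of 4.66% for *CG17669* and 6.21% for *TwdlY*, while *mthl8* varied more, at 18.7%, with replicate 1 highest. On the per-length scale *mthl8* and *CG17669* reached similar levels in *Alk-YS*, 12.7 and 14.6 FPKM, and *TwdlY* was lower, at 3.01 FPKM.

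In 4 further members every w1118 library stayed at or below 45.0 normalized counts while *Alk-YS* stood more than 10-fold higher by the ratio of means. *CG6912* (FBgn0038290, 3R, 15135138 to 15137004, minus strand) had 1147, 840 and 1009 normalized counts in *Alk-YS* and 39.6, 45.0 and 10.8 in w1118, a ratio of means of 31.4. Replicate 3 was the low library of the w1118 group by a wide margin, and no *Alk-YS* library came near the w1118 range. *CG13840* (FBgn0039028, 3R, 22814483 to 22816178) had 206, 335 and 270 normalized counts in *Alk-YS*, against 4.4, 17.0 and 12.8 in w1118, and *Alk-YS* replicate 1 was the lowest of its group. *Crg-1* (FBgn0021738, X, 3793223 to 3797339, plus strand) is a forkhead-domain transcription factor gene first named for circadian regulation. It had 147, 85.4 and 98.6 normalized counts in *Alk-YS*, against 7.70, 10.001 and 1.97 in w1118. Its exons overlap transposable element copies on both strands and a long noncoding RNA on the other strand. *CG14957* (FBgn0035412, 3L, 3187563 to 3188106, plus strand) had 104, 121 and 124 normalized counts in *Alk-YS* and 0, 19.0 and 4.92 in w1118. The CV of *CG14957* was 9.03% in *Alk-YS* and 124% in w1118, where its counts were low.

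**Figure D2:**
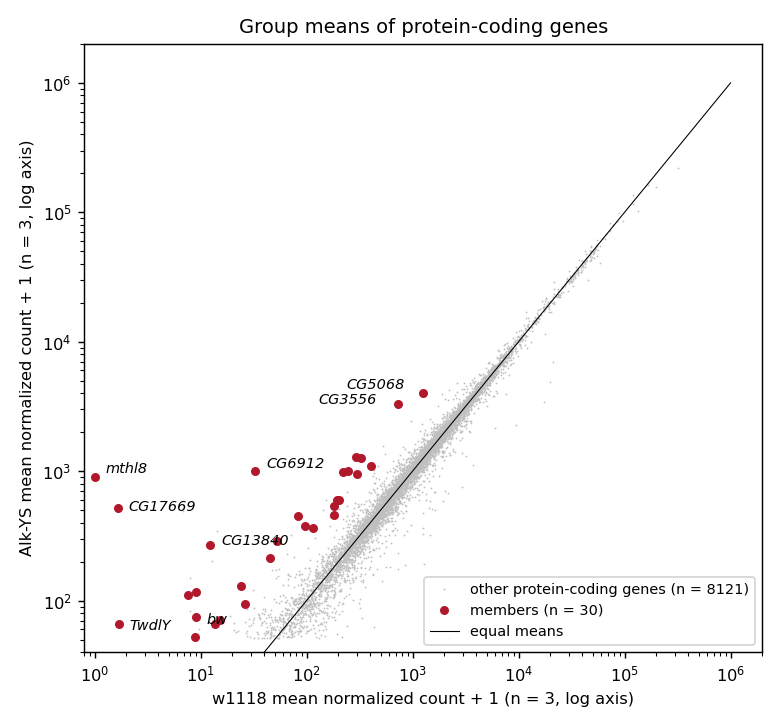
Mean normalized count plus 1 in Alk-YS (vertical) against that in w1118 (horizontal), both on log axes, for the 30 members in red and the rest of the 8151 protein-coding genes with an Alk-YS mean of at least 50 in grey. The line marks equal means. mthl8, CG17669 and TwdlY sit at the left edge, where w1118 means are below 1, and CG5068 and CG3556 are the members with the highest Alk-YS means.

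Transcription factors and other nuclear proteins made up a first group. *fd59A* (FBgn0004896, 2R, 22868159 to 22870706, plus strand), a forkhead gene of the FoxD class expressed in subsets of neurons, had 881, 1133 and 924 normalized counts in *Alk-YS*, against 143, 179 and 337 in w1118. Replicate 3 of w1118 stood above the other w1118 libraries, yet below every *Alk-YS* library. *hng3* (FBgn0035160, 3L, 737680 to 755489), named after *hinge* and coding for a protein with a BESS domain, a protein-interaction motif of DNA-binding regulators, had 1437, 1324 and 1131 normalized counts in *Alk-YS*, against 310, 291 and 279 in w1118. The w1118 values of *hng3* lay close together (CV 5.45%). Of the other genes that the table places in the forkhead family, 12 were tested and none passed the test by limma, with 3 at an unadjusted p under 0.05, a median log2 fold change of -0.11 and values between -0.44 and 0.44. *Crg-1* (above), itself a member with a log2 fold change of 4.04, is given no family there and is not among them. Of the other BESS genes, 17 were tested and 1 passed. This was *hng2*, a relative of *hng3*, with 632, 625 and 771 normalized counts in *Alk-YS* and 417, 416 and 372 in w1118 (log2 fold change 0.74 ± 0.12 SE, adjusted p = 0.021, limma). Without *Alk-YS* replicate 1 or 3, or w1118 replicate 1 or 2, *hng2* did not pass (adjusted p up to 0.087). Its groups do not overlap, and its difference is smaller than that of *hng3*, whose log2 fold change was 2.14. Among all tested genes, 2.97% passed in either direction. The share of all tested genes at an unadjusted p under 0.05 is not given here. Counts at that cutoff, here and below, have no background beside them, and nothing is read from them.

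Membrane proteins formed a second group. *Irk2* (FBgn0039081, 3R, 23513617 to 23519445) encodes an inwardly rectifying potassium channel and had 188, 201 and 249 normalized counts in *Alk-YS*, against 42.9, 38.0 and 53.2 in w1118. Its 2 family members did not pass the test: *Irk1* had a log2 fold change of 0.06 ± 0.14 and *Irk3* one of -0.27 ± 0.28 (SE, limma). *Irk1* had 440 to 483 normalized counts in *Alk-YS* and 391 to 533 in w1118, ranges that overlap. *Tsp42Ea* (FBgn0029508, 2R, 6992676 to 7004259, plus strand), a tetraspanin, had 603, 240 and 275 normalized counts in *Alk-YS* and 109, 87.0 and 91.5 in w1118. Replicate 1 of *Alk-YS* was more than 2 times the other libraries of its group, and the CV of 53.7% was the highest of any member in *Alk-YS*. *Tsp42Ea* shares exon sequence with *CG30159* on the same strand, which had 931, 896 and 817 normalized counts in *Alk-YS* and 620, 701 and 743 in w1118 (log2 fold change 0.36, adjusted p = 0.16, limma), so a part of the reads may belong to either gene.

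The tetraspanins of chromosome band 42E are a tandem cluster, which made it possible to compare *Tsp42Ea* with close copies. Of 33 other genes placed in the tetraspanin family, 23 were tested and 1 passed, against 2.97% of all genes tested. *Tsp42Ee* had 8947, 9053 and 8101 normalized counts in *Alk-YS*, against 5871, 6593 and 6582 in w1118 (log2 fold change 0.45 ± 0.09 SE, adjusted p = 0.038, limma). This call did not hold in 7 of 17 alternative fits, among them those without w1118 replicate 1, w1118 replicate 2 or any of the *Alk-YS* replicates, and its adjusted p reached 0.18. *Tsp42El* lay lower, at 211 to 273 normalized counts in *Alk-YS* and 331 to 446 in w1118, and did not pass (log2 fold change -0.72, adjusted p = 0.067, limma).

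*bw* (*brown*; FBgn0000241, 2R, 23527805 to 23538499, minus strand) encodes an ABC transporter subunit that pairs with White and brings pigment precursors into cells. It had 60.9, 99.3 and 62.3 normalized counts in *Alk-YS*, against 2.20, 9.0 and 12.8 in w1118. Its exons overlap *mi* on the other strand, which had 695, 985 and 613 normalized counts in *Alk-YS* and 570, 562 and 961 in w1118, with overlapping groups. Of 20 other ABC transporter genes tested, none passed, with 6 at an unadjusted p under 0.05, and of 7 other eye pigment genes tested, none passed and none had an unadjusted p under 0.05 (limma). *st*, which encodes the scarlet partner of White, had 16.0 to 19.5 normalized counts in *Alk-YS* and 13.8 to 22.01 in w1118. *CG30344* (FBgn0050344, 2R, 9145260 to 9148512), placed in the major facilitator superfamily (MFS) of transporters, had 620, 541 and 631 normalized counts in *Alk-YS*, against 212, 224 and 168 in w1118. Of 54 other MFS genes tested, 2 passed, and both were lower in *Alk-YS*, where 2.97% of all genes tested passed and 1.71% were lower. *rtet* had 342, 369 and 364 normalized counts in *Alk-YS* and 555, 560 and 560 in w1118 (log2 fold change -0.64, adjusted p = 0.017, limma). *CG3649* had 141, 137 and 153 normalized counts in *Alk-YS* and 255, 276 and 288 in w1118 (log2 fold change -0.92, adjusted p = 0.014, limma). Neither passed without *Alk-YS* replicate 1 or 3, or w1118 replicate 1 or 2, with adjusted p up to 0.083 for *rtet* and 0.071 for *CG3649*.

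*mthl8* had 15 relatives of the methuselah family in the table, of which 13 could be tested. None passed the test, with 5 at an unadjusted p under 0.05 (limma), and the median log2 fold change was -0.20. *mthl3* had 939, 1232 and 977 normalized counts in *Alk-YS* and 566, 622 and 777 in w1118, groups that do not overlap (log2 fold change 0.68, adjusted p = 0.067). *mthl6* had lower values in every *Alk-YS* library, with 203, 352 and 272 normalized counts in *Alk-YS* and 505, 462 and 901 in w1118 (log2 fold change -1.14, adjusted p = 0.091). The rule chose *mthl8* by its values in these same libraries, so nothing is read from its contrast with these relatives.

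**Figure D3:**
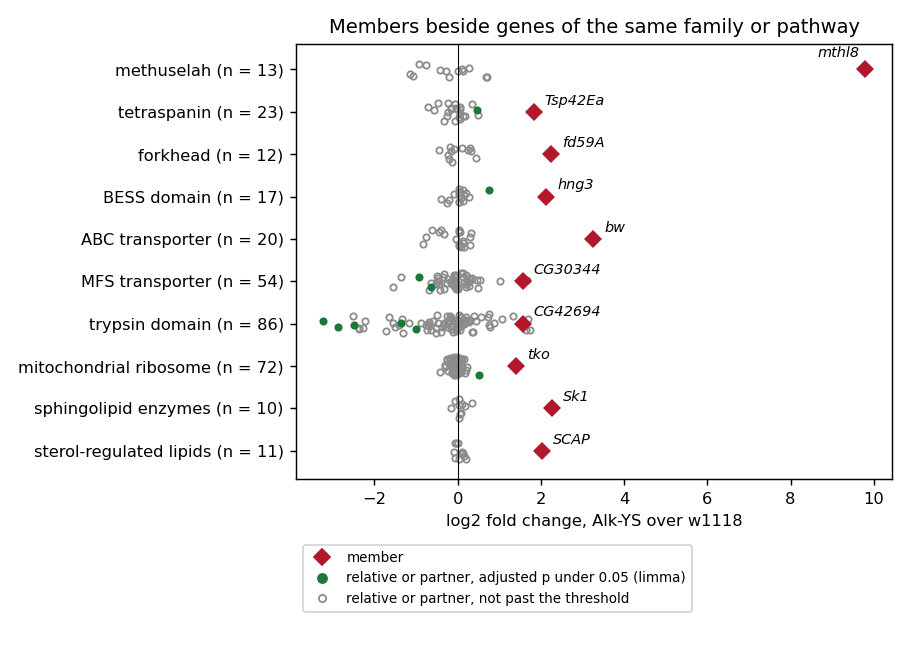
Log2 fold change, Alk-YS over w1118, of members (red diamonds) beside tested genes of the same family or pathway, 1 row a family with n as the number of such genes. Filled green circles passed an adjusted p of 0.05 in limma across all genes and open grey circles did not. Most relatives lie near 0, hng2, Tsp42Ee and mRpS28 are the green circles above 0, and the 7 green circles below 0 are transporters and trypsin-domain genes.

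Another group held genes of lipid metabolism, lysosomal and other enzymes, and a ribosomal protein. *SCAP* (FBgn0033052, 2R, 6026273 to 6036388, minus strand) escorts the lipid-sensing transcription factor SREBP to the Golgi, where it is cleaved and activated. It had 1147, 1361 and 1280 normalized counts in *Alk-YS*, against 254, 225 and 501 in w1118. Replicate 3 of w1118 had about 2 times the level of the other w1118 libraries and stayed below all *Alk-YS* libraries. Of 11 tested genes for SREBP, its proteases and the lipid enzymes under its control, none passed and none had an unadjusted p under 0.05 (limma), and their log2 fold changes lay between -0.10 and 0.20 with a median of 0.02. *HLH106*, the gene for SREBP itself, had 3114, 3456 and 3224 normalized counts in *Alk-YS* and 2693, 2901 and 3395 in w1118, with overlapping groups (log2 fold change 0.13). *S2P*, the second SREBP protease, had 1070 to 1138 normalized counts in *Alk-YS* and 1114 to 1169 in w1118.

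*Sk1* (FBgn0030300, X, 11442539 to 11446012) encodes a sphingosine kinase and was among the weakest members in level, with 45.2, 71.5 and 78.1 normalized counts in *Alk-YS* and 12.1, 16.0 and 9.84 in w1118. Its paralog *Sk2* did not pass, at 736, 993 and 824 normalized counts in *Alk-YS* and 862, 911 and 1055 in w1118. None of 10 other sphingolipid enzymes passed, with 1 at an unadjusted p under 0.05 (limma). *GILT3* (FBgn0039098, 3R, 23677358 to 23678421) belongs to the lysosomal thiol reductases, which cut disulfide bonds in proteins under degradation. It had 459, 391 and 498 normalized counts in *Alk-YS*, against 60.5, 83.0 and 101 in w1118. *GILT2*, the next gene 0.474 kb downstream, had 274, 144 and 329 normalized counts in *Alk-YS* and 385, 420 and 266 in w1118, so its groups overlap. *GILT1* did not pass either and lay at a log2 fold change of -0.08. *Ect3* (FBgn0260746, 3R, 11999278 to 12003516), a beta-galactosidase gene, had 975, 976 and 1078 normalized counts in *Alk-YS* and 222, 166 and 351 in w1118, again with replicate 3 highest among the w1118 libraries.

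*CG42694* (FBgn0261584, 2R, 22941877 to 22945147) is placed in the trypsin family of serine proteases and had 564, 546 and 509 normalized counts in *Alk-YS*, against 161, 212 and 173 in w1118. Of 86 other trypsin-domain genes tested, 5 passed and all 5 were lower in *Alk-YS*: *scaf*, *ea*, *CG43124*, *CG34437* and *CG31220*. Over all genes tested, 2.97% passed in either direction and 1.71% were lower. *scaf*, a protease homolog without catalytic activity, had 306, 286 and 369 normalized counts in *Alk-YS* and 778, 882 and 816 in w1118 (log2 fold change -1.37 ± 0.13 SE, adjusted p = 0.0018, limma). *scaf* passed in all 17 alternative fits. *CG43124* did not pass without w1118 replicate 2 (adjusted p = 0.077), and *ea*, *CG34437* and *CG31220* were each lost in at least 6 fits, among them those without *Alk-YS* replicate 3 or any w1118 replicate. Over the 86 genes, log2 fold changes ran between -3.22 and 1.74 with a median of -0.17. The rule set the direction of *CG42694*, so nothing is read from its contrast with these genes.

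*tko* (FBgn0003714, X, 2442313 to 2443976, minus strand) encodes protein S12 of the mitochondrial ribosome. Its level was 1234, 922 and 1117 normalized counts in *Alk-YS* and 375, 423 and 425 in w1118. Of 72 other mitochondrial ribosomal protein genes, all were tested. Beside 2.97% of all genes tested, 1 of the 72 passed. This was *mRpS28*, with 613, 539 and 572 normalized counts in *Alk-YS* and 413, 400 and 385 in w1118 (log2 fold change 0.52 ± 0.11 SE, adjusted p = 0.045, limma). It did not pass in 10 of 17 alternative fits, including every fit with a library left out (adjusted p up to 0.20). The median log2 fold change of the 72 genes was -0.05, none of the others had an unadjusted p under 0.05, and the lowest was -0.42. *tko* lay at 1.41.

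Among the members known from the male germ line and tract were *CG17669* (above), *blanks* and *antr*. *blanks* (FBgn0035608, 3L, 5497523 to 5498958), a double-stranded RNA-binding protein needed in developing sperm, had 80.2, 73.7 and 125 normalized counts in *Alk-YS*, against 25.3, 29.0 and 21.7 in w1118. *antr* (*antares*; FBgn0050488, 2R, 12846848 to 12848004) encodes a seminal fluid protein with a role in sperm storage after mating, and had 42.4, 48.0 and 64.2 normalized counts in *Alk-YS*, against 6.60, 8.0 and 8.86 in w1118. *antr* was the only member whose *Alk-YS* mean fell below 50 when replicate 3 was left out. Testis markers were near the floor in both groups: of 7 listed, 5 were in the table, 2 could be tested and none passed or had an unadjusted p under 0.05 (limma). Their summed level was 69.8 to 83.9 normalized counts in *Alk-YS* and 39.6 to 84.6 in w1118, and *dj*, *Mst87F* and *Mst98Ca*, which mark maturing sperm, stayed at or below 9.84 in every library. Of 7 tested genes of motile cilia, the structures that Dnaaf3 serves, none passed and none had an unadjusted p under 0.05, with a median log2 fold change of 0.12. *lectin-46Cb*, the single tested gene of the sperm storage network to which *antr* belongs, had 14.9 to 23.5 normalized counts in *Alk-YS* and 9.90 to 24.0 in w1118. *TwdlY* had 17 relatives in the table, of which 2 were tested and none passed or had an unadjusted p under 0.05 (limma).

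Among the members known by CG numbers, *CG5068* (FBgn0035951, 3L, 8986710 to 8989135) and *CG3556* (FBgn0029708, X, 4530231 to 4535464) had the highest normalized counts of all. *CG5068*, the fly counterpart of a protein phosphatase methylesterase by homology, had 4347, 3747 and 3984 normalized counts in *Alk-YS* and 1218, 1170 and 1337 in w1118. *CG3556*, whose protein resembles cobalamin-binding carriers of vertebrates, had 3435, 3267 and 3145 normalized counts in *Alk-YS* and 820, 627 and 740 in w1118. Per length, *CG5068* stood at 105 FPKM in *Alk-YS* and 32.4 in w1118, above 91.8% of the 8151 protein-coding genes in *Alk-YS*. *CG6310* (FBgn0036121, 3L, 11069043 to 11069864) had 801, 981 and 1075 normalized counts in *Alk-YS*, against 289, 319 and 291 in w1118. *CG17186* had 645, 602 and 534 normalized counts in *Alk-YS*, against 201, 190 and 184 in w1118. Both showed w1118 libraries within a narrow band (CV 5.53% and 4.58%).

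*CG32581*, or *sordd2* (FBgn0052581, X, 15796908 to 15799162, minus strand), was the most reproducible member in *Alk-YS* (CV 2.38%), with 293, 280 and 288 normalized counts there and 58.3, 50.005 and 47.2 in w1118. *CG8974*, now *sordd1*, lies 0.88 kb downstream on the same chromosome and carries the paired name. It had 1829, 1610 and 1750 normalized counts in *Alk-YS* and 1530, 1820 and 1521 in w1118, with overlapping groups (log2 fold change 0.09). Reads that fit both copies could have been counted for either or dropped, and how the counting treated them is not given in the sources used here. *CG17018*, or *Marf1* (FBgn0039972, 2L, 22308755 to 22368796), had 71.9, 56.6 and 82.8 normalized counts in *Alk-YS* and 8.80, 17.0 and 16.7 in w1118, and 0.63 FPKM in *Alk-YS*, the lowest per-length *Alk-YS* level of the 30 members. *CG14275* had 184, 87.5 and 117 normalized counts in *Alk-YS* and 35.2, 16.0 and 18.7 in w1118, with replicate 1 highest in each group.

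The remaining members were at the edge of the rule. Just inside were *CG12182* with a rule ratio of 2.07, *CG32165* with 2.12 and *Tsp42Ea* with 2.15. Just outside were *CG6293* with 1.99 and *Lrt* and *CG32641* with 1.98 each. *CG12182* had 484, 422 and 460 normalized counts in *Alk-YS*, against 183, 164 and 201 in w1118. *CG6293*, outside the bound, had 154, 226 and 130 normalized counts in *Alk-YS*, against 37.4, 39.0 and 63.0 in w1118, so its group means stood further apart than those of *CG12182*, while its lowest *Alk-YS* and highest w1118 libraries lay closer. *CG32165*, or *Apl* (Apollo, an importin), had 375, 320 and 384 normalized counts in *Alk-YS*, against 111, 84.0 and 149 in w1118. Its paralog *CG32164*, now *Arts* (Artemis), lies 2.59 kb downstream and had lower values in every *Alk-YS* library, with 661, 888 and 577 normalized counts in *Alk-YS* and 1100, 991 and 1346 in w1118 (log2 fold change -0.70, adjusted p = 0.096, limma), and reads that fit both copies could be assigned to either. Requiring a bound of 1.5 in place of 2 gave 60 genes, and a bound of 3 gave 14.

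The members varied more between replicates than other genes did. Their median CV was 12.9% in *Alk-YS* and 24.6% in w1118, beside 8.61% in *Alk-YS* and 11.96% in w1118 for the 8151 protein-coding genes. Many members had low counts in w1118, and the part of this in the CV was not tested. Within *Alk-YS*, replicate 1 was the highest library for 13 members, replicate 2 for 5 and replicate 3 for 12. Among the 8151 protein-coding genes, replicate 1 was the highest *Alk-YS* library for 28.4%, replicate 2 for 41.4% and replicate 3 for 30.2%. Within w1118, replicates 1, 2 and 3 were the highest for 8, 11 and 11 members, the tie of *mthl8* at 0 counted for replicate 1, and for 29.7%, 31.1% and 39.2% of the 8151 genes. With any single library left out, at least 29 of the 30 still met the rule. This was set in advance, since leaving out a library cannot lower the ratio in the rule. Only the bound on the *Alk-YS* mean could remove a member.

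Features that the rule did not use were also described. The members lie on X (6), 2L (2), 2R (8), 3L (8) and 3R (6), and none lies on chromosome 4. Chromosome 2L held 6.67% of members and 17.8% of the 8151 genes, and 2R held 26.7% and 19.9%. They are scattered: the closest pair, *fd59A* and *CG42694*, is 71.2 kb apart, *Irk2* and *GILT3* are 158 kb apart, and the nearest other member of every remaining gene lies over 580 kb away. Median exon length was 1785.5 bases for members and 2333 bases for all 8151 genes. In the annotation, the exons of 21 members overlap no other gene, those of 3 overlap a gene or element on the same strand and those of 7 overlap 1 on the opposite strand.

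Genes around the members were not part of the rule, so they could be tested. Of 248 genes within 20 kb of a member, 195 could be tested, beside 27 of the 30 members. Past the threshold were 8 of them, beside 7 members, or 4.10% of the neighbours, against 2.97% of all genes tested. Higher in *Alk-YS* were 5 (2.56%, against 1.26% of all genes) and lower were 3, in a table in which 1.71% of all genes were lower. On recovered reads, edgeR called 8 neighbours (2.7% of all genes) and DESeq2 15 (6.33% of all genes). Their median log2 fold change was 0.03, and 84.6% of them lay within 0.5 of 0 on the log2 scale, as did 85.4% of all genes.

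The neighbours that passed with the largest differences were *CR44383*, *gt* and *CR45600*. *CR45600* (FBgn0267160, 3R, 15136985 to 15140121), a long noncoding RNA gene, overlaps *CG6912* on the same strand and had 190, 176 and 121 normalized counts in *Alk-YS*, against 7.70, 12.001 and 6.89 in w1118 (log2 fold change 4.06 ± 0.32 SE, adjusted p = 0.00088, limma). The 2 genes share only the stretch from 15136985 to 15137004, a small part of *CR45600*, and reads from it cannot be told apart. *CR44383* (FBgn0265533, X, 15796477 to 15796897), a pseudogene 0.011 kb past the end of *CG32581* on the other strand, had 110, 45.9 and 77.2 normalized counts in *Alk-YS* and 0, 0 and 0 in w1118. It was at least 25.2-fold higher in *Alk-YS*, with 3 reads per library as the floor (adjusted p = 0.0016, limma). *CR45600* and *CR44383* passed the threshold in every alternative fit in which they were tested, 17 and 16 fits. *gt* (*giant*; FBgn0001150, X, 2427113 to 2428967), a bZIP transcription factor of embryonic segmentation, lies 13.3 kb downstream of *tko*. It had 44.3, 32.0 and 39.1 normalized counts in *Alk-YS* and 2.20, 3.00 and 0 in w1118, a ratio of 22.7 with a 95% counting interval of 9.45 to 71.1 (adjusted p = 0.018, limma). This call did not hold in 5 of 16 alternative fits, with adjusted p up to 0.10, and 4 of the 5 leave out a library (any *Alk-YS* library or w1118 replicate 1).

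**Figure D4:**
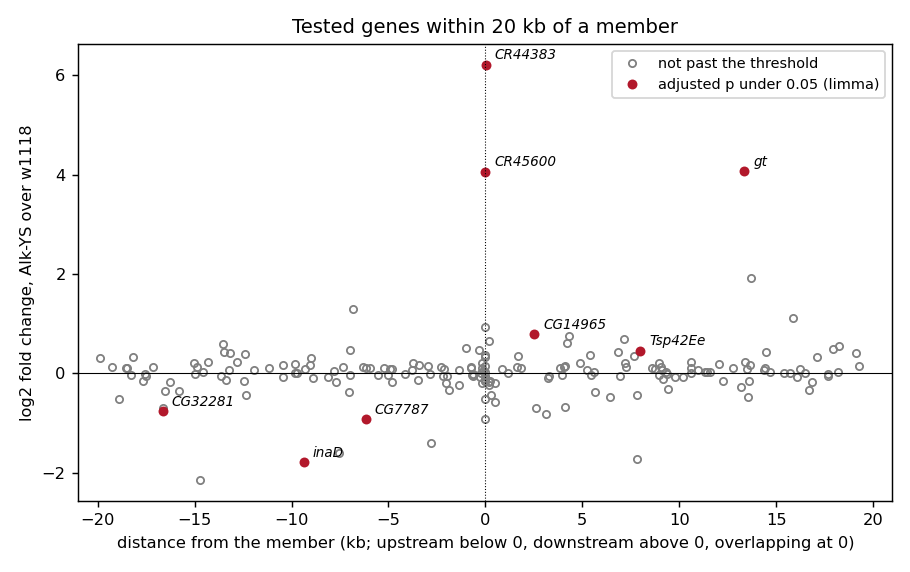
Log2 fold change, Alk-YS over w1118, of the 195 tested genes within 20 kb of a member against their distance from it in kb (upstream below 0, downstream above 0, overlapping genes at 0). Filled red circles are the 8 genes past an adjusted p of 0.05 in limma and open grey circles the others, most of which lie near 0 at every distance.

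The other 5 neighbours that passed had smaller differences. *inaD*, a scaffold protein of phototransduction 9.37 kb upstream of *fd59A*, was lower, with 24.0, 39.5 and 30.7 normalized counts in *Alk-YS* and 110, 113 and 103 in w1118 (log2 fold change -1.79 ± 0.25 SE, adjusted p = 0.011, limma). *CG7787*, 6.17 kb upstream of *CG14275*, was lower as well, with 347, 406 and 328 normalized counts in *Alk-YS*, against 627, 715 and 714 in w1118 (log2 fold change -0.93, adjusted p = 0.0095, limma). *CG14957* had a neighbour in each direction of change: *CG14965* was higher (log2 fold change 0.79, adjusted p = 0.013) and *CG32281* lower (log2 fold change -0.76, adjusted p = 0.024, both limma). *Tsp42Ee*, given above, was the last. The calls of *inaD*, *CG7787*, *CG14965* and *CG32281* were each lost without w1118 replicate 2. Without w1118 replicate 1 those of *inaD*, *CG14965* and *CG32281* were lost as well, and over all fits the adjusted p reached 0.063 for *inaD*, 0.055 for *CG7787*, 0.068 for *CG14965* and 0.11 for *CG32281*. Those of *CG14965* and *CG32281* were also lost without *Alk-YS* replicate 1 or 3, and that of *CG32281* without *Alk-YS* replicate 2.

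Neighbours that did not pass included a neuropeptide gene. *Tk*, which encodes tachykinins and whose span contains *Ect3* on the other strand, had 107, 184 and 159 normalized counts in *Alk-YS* and 81.4, 72.0 and 75.8 in w1118, groups that do not overlap (log2 fold change 0.93 ± 0.23 SE, adjusted p = 0.089, limma). *CG7778*, 13.7 kb downstream of *CG14275*, had 571 normalized counts in *Alk-YS* replicate 1 and 7.47 and 20.5 in the other *Alk-YS* libraries, against 8.80, 17.0 and 9.84 in w1118. That library alone was high. It was the highest *Alk-YS* library for 13 members, *CG14275* and *Tsp42Ea* among them, and the lowest for 11.

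Markers of the tissue itself and of tissues that could be carried over in dissection were set beside these results. Of the listed markers, 7 of neurons and 6 of glia were all tested and none passed, with 1 of each at an unadjusted p under 0.05 (limma). All 5 neuroblast markers were at an unadjusted p under 0.05 and none passed after adjustment (median log2 fold change 0.49), with summed levels of 7386 to 9580 normalized counts in *Alk-YS* and 5023 to 7391 in w1118. The share of all tested genes at that unadjusted cutoff is not given here. Of the 195 tested neighbours 30 reached it (limma), so nothing is read from the count of neuroblast markers. Of 41 tested markers of other tissues, 6 passed, against 2.97% of all genes tested, and 14 passed with the replicate number as a block, 13 of them lower in *Alk-YS*. The 5 lower in *Alk-YS* were *Fbp2* of the fat body, *Mlc1* and *Mlc2* of muscle, *NimC1* of hemocytes and *Sgs4* of the salivary gland, and *rn* of imaginal discs was higher. *Mlc2* and *NimC1* passed in all 17 alternative fits. *Fbp2* was lost without *Alk-YS* replicate 1 or w1118 replicate 1 (adjusted p up to 0.063). *Mlc1*, *Sgs4* and *rn* were lost in 6, 9 and 8 fits, among them those without *Alk-YS* replicate 1 or 2, or w1118 replicate 1 or 2. None of 7 ring gland markers, 1 midgut marker or 5 genes that differ between the sexes passed, with 1, 0 and 0 at an unadjusted p under 0.05 (limma). The summed level of the sex genes varied widely within groups, from 15264 to 28975 in *Alk-YS* and from 11515 to 29652 in w1118. The sex make-up of the pools was not tested. Summed fat body markers ran between 6369 and 40008 normalized counts in *Alk-YS* and between 18059 and 137688 in w1118, and summed muscle markers between 1802 and 2527 in *Alk-YS* and between 3222 and 4243 in w1118. Imaginal disc markers summed to 4044 to 4149 in *Alk-YS* and 3306 to 3723 in w1118. The part of other tissues in the level of any member was not tested.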

How the data were processed

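RNA from larval CNS of 3 *Alk-YS* and 3 w1118 pools was sequenced by the authors, whose processing notes name HISAT2 2.0.5, featureCounts 1.5.0-p3 and DESeq2 1.20.0. The deposited comparison table holds, per library, a normalized signal, gene read counts divided by DESeq2 size factors. In every library 100% of values were whole multiples of 1 step (tolerance 0.01 reads), so reads were recovered, 18770029 to 22333967 a library. A second table deposited by the authors holds FPKM. The authors' own log2 fold changes and adjusted p-values in the comparison table were not used, and other deposited columns (gene position, biotype, family) served as annotation. Gene symbols and coordinates are those of the table; 98.2% of gene IDs were found in Ensembl BDGP6, and 98.4% of these at the same place.

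Genes with a mean of at least 10 over the 6 libraries (9668) were tested on log2(value + 1) with limma 3.58.1 (R 4.3.3, trend, Benjamini-Hochberg over all genes, threshold 0.05). edgeR 4.0.16 and DESeq2 1.42.0 on recovered reads were alternatives, as were other scalings, filters, pseudocounts and left-out libraries. Functions were tested on simulated data. Members and all lists were chosen with earlier results of these data known, and the lists of pathway partners and the relatives by family column were added once the members were known. Values per library are given for members with at most 3 reads in each w1118 library, the 10 with the highest rule ratio, the 10 with the highest *Alk-YS* mean, members of known role, and neighbours and relatives that passed. Other genes were named after their values were seen. Tissue markers also covered midgut (1 of 13 tested), hemocytes (6), salivary gland (5), ring gland (7) and sex-linked genes (5). Promoter motifs were not analysed here.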

Additional observations from a re-analysis of the deposited data

How the results depend on the processing

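The count of 30 genes moved to 60 with a bound of 1.5 and to 14 with a bound of 3. It was 35 to 39 with single libraries left out, where the ratio in the rule can only stay or rise. The 287 genes passing in limma became 612 in DESeq2 and 84 at an adjusted p of 0.01, with 105 to 336 when a library was left out. The 336 came without w1118 replicate 3, which lay furthest from its group. Its mean chi-square per gene on reads was 76.2 against replicate 1 and 95.1 against replicate 2. That between w1118 replicates 1 and 2 was 34.3, and pairs of *Alk-YS* libraries had 12.8 to 31.7. Of 195 tested neighbours, 15 passed in DESeq2 and 3 at 0.01, with 3 to 10 when a library was left out. Within 50 kb, 17 of 363 tested genes passed, beside 8 of 195 within 20 kb. Of the relatives by symbol, 1 passed, against 4 in DESeq2, 0 without the mean-variance trend and 0 at 0.01, with 0 to 2 when a library was left out. Of tissue markers, 6 passed, against 12 in DESeq2, 3 without the trend and 2 at 0.01, with 2 to 6 when a library was left out. The cause of these differences was not tested. Members' log2 fold changes kept their sign in all 360 member and alternative pairs, and 26 moved by more than the spread between replicates, 19 of them on the FPKM table. Nothing is read from the kept signs, since the rule chose members by this direction.

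Whether replicate numbers pair the libraries is not known. Deviations of same-numbered libraries from their group means correlated at -0.12, 0.35 and 0.41, and those of other pairs at between -0.48 and 0.32. With the replicate number as a block, 284 genes, 7 neighbours, 2 relatives and 14 tissue markers (13 lower in *Alk-YS*, 1 higher) passed. With 3 libraries a group, genes of few reads are measured least precisely.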
